A study of Homo sapiens with 4 samples.

Results

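The keratin genes encode the intermediate filament proteins of epithelial cells, and they were followed here in MCF10A, a non-tumorigenic human breast epithelial line, after stable introduction of different genes. A member was any gene whose symbol is KRT followed by a number, with or without 1 letter, on a probe set annotated to exactly 1 symbol; pseudogenes and keratin-associated protein genes were left out. This gave 47 of the 20910 measured genes. RefSeq lists 55 such symbols, and 8 of them (KRT6A, KRT6B, KRT17, KRT34, KRT81, KRT82, KRT86 and KRT222) were not analysed here. Each of 4 groups was measured on 1 array: cells carrying LacZ (a bacterial enzyme gene, the control), Her2 (the receptor tyrosine kinase ERBB2), mutant PIK3CA (PIK3CA-H1047R, the catalytic subunit of a lipid kinase), or Her2 together with mutant PIK3CA. All groups shared the parental line and were grown without treatment, so the control and the other cell models have the MCF10A background in common. The labels do not say whether a cell model was 1 clone or a pool. The values are deposited log2 values, on which a difference of 1 is 2-fold. The arrays are named here by their labels, as LacZ, Her2-labelled, PIK3CA-labelled and, for both genes, double. With 1 array in each group no difference has a replicate check, no SD can be given, and no test compares the arrays.

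Keratins assemble as pairs of a type I (acidic) and a type II (basic) chain, and the pairs differ with the epithelial layer. KRT5 with KRT14 is the pair of basal cells, to which KRT15 is added as another basal type I chain. KRT8 with KRT18, together with KRT7, KRT19 and KRT20, belong to simple or luminal epithelium. KRT6 chains, KRT16 and KRT17 are known from wounded and hyperproliferating epidermis and are called stress keratins here. In the breast, basal and luminal keratins are commonly used to tell apart the outer and inner cell layers of the duct.

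The type II genes lie in 1 cluster on chromosome 12, where KRT18 also lies, and the other type I genes in a cluster on chromosome 17. RefSeq promoter sequences (GRCh38.p14) matched 32 of the 47 keratins, most of them hair keratins. KRT7, KRT14, KRT15, KRT16, KRT18, KRT19 and KRT80 were among those without a match. The 250 bases before the annotated start are shown for KRT5, the basal chain whose value differed least between the arrays among the keratins that reached a log2 value of 5, and for KRT10, a chain of differentiating layers that was higher on 1 array only. KRT5 lies at chr12:52520395-52520644 and KRT10 at chr17:40822615-40822864, both on the minus strand, written 5′ to 3′. Capitals mark TATAAA and CCAAT, searched on both strands, where the reverse strand reads TTTATA and ATTGG.
KRT5: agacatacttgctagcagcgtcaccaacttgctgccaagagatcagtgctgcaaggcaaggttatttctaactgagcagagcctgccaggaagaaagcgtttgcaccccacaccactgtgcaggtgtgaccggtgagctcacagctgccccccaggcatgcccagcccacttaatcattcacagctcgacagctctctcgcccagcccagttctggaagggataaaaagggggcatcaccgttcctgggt
KRT10: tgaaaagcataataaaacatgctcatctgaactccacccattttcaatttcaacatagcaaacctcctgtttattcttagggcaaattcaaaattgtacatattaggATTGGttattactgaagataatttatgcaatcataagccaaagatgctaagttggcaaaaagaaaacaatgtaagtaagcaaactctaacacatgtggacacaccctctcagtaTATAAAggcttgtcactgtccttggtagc
The KRT10 window held TATAAA from 29 to 24 bases before the start and ATTGG from 143 to 139 bases before it. The KRT5 window held neither word. TATAAA stood in 18 of the 32 keratin windows (56.2%) and in 10.7% of all 35116 windows of this length, and CCAAT in 15 of 32 (46.9%) and in 32.0%. These counts describe letters in the windows, and no binding was measured.

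The introduced gene was checked first. The probe set annotated to ERBB2 and MIR4728 read 5.96 on the LacZ array, 4.29 on the Her2-labelled array, 8.48 on the PIK3CA-labelled array and 7.39 on the double array. It was lowest where the label gives Her2 alone and highest where the label gives mutant PIK3CA alone, against the labels, so each direction below is given by label only. Array medians over all 53617 probe sets ranged from 1.13 to 1.17. Epithelial identity was checked with CDH1, EPCAM, ITGB4, EGFR and CD44, and all 5 were at 5.07 or higher on every array. On the double array 3 of these were at least 2-fold lower than on LacZ, against 4.44% of all measured genes. Of the 4314 measured genes that reached 5 on at least 1 array, 478 were. CDH1 differed by -4.27, EPCAM by -2.22 and ITGB4 by -1.30. TP63 was not analysed here. Of 8 luminal markers, ESR1, PGR, FOXA1, ELF5 and KIT lay at or under 1.65 on every array, GATA3 at or under 4.77, and CD24 and MUC1 reached 7.42 and 7.83. The endothelial markers VWF and CDH5 stayed at or under 1.10, and the leukocyte markers PTPRC and CD3E at or under 1.15, while CD68 read up to 6.78. Of 6 myoepithelial markers, OXTR reached 6.23 and ACTA2 4.61, and MYH11, CNN1, MYLK and TAGLN stayed at or under 1.65.

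Few of the measured keratins carried a high value on these arrays. On at least 1 array, 5 of the 47 reached a log2 value of 5: the basal chains KRT5 and KRT15, the stress chain KRT16, the luminal chain KRT7 and KRT80, a type II chain of differentiated epithelium. Of the 47, 38 stayed at or under 2 on every array. The 34 keratins not described singly lay between 0.14 and 1.97, with a median of 0.88 over all their values. The 5 comparisons made set each other array against LacZ and the double array against each single-gene array. In these, no difference among the 34 reached 2-fold (the largest was 0.99 in size). The single-gene arrays were not compared with each other, and there KRT38 read 0.67 (Her2-labelled) and 1.80 (PIK3CA-labelled), more than 2-fold apart. Values of different probe sets are not compared as levels.

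**Figure D1:**
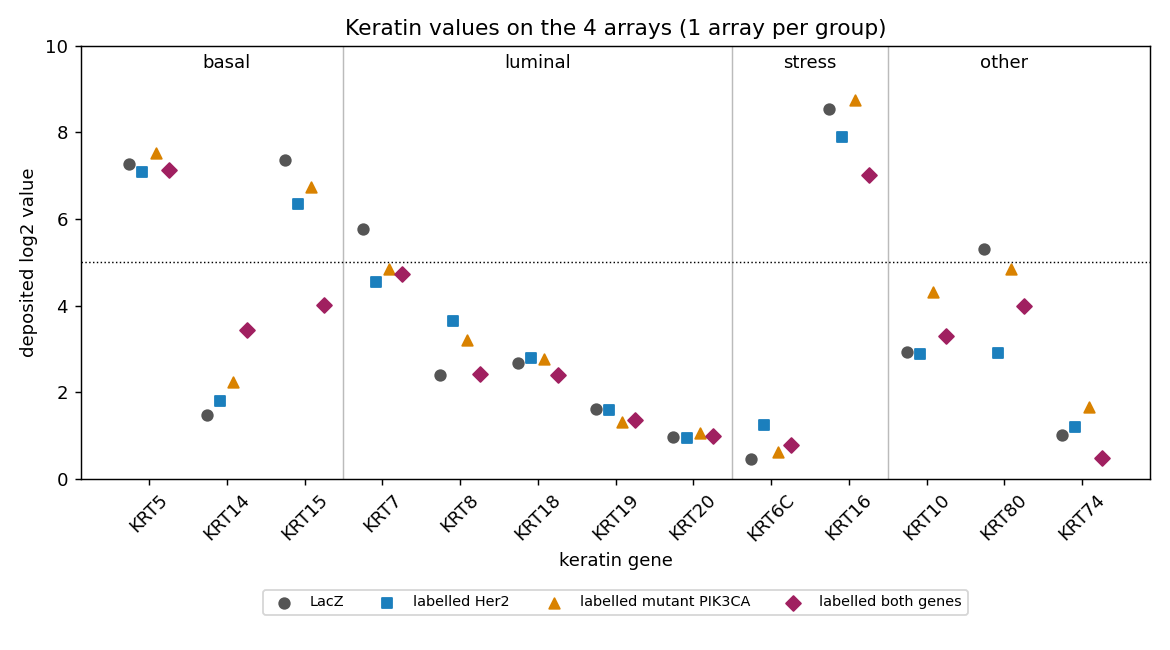
Deposited log2 values (vertical axis) of the 13 keratins described singly (horizontal axis), grouped as basal, luminal, stress and other; each point is 1 array, with 1 array per group, and the dotted line marks a log2 value of 5. KRT5 stays between 7.08 and 7.52, while KRT15 reads 7.37 on the LacZ array and 4.01 on the double array.

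On the double array, 4 keratins were 2-fold lower or more relative to LacZ (KRT15, KRT16, KRT80 and KRT7) and 1 was at least 2-fold higher (KRT14). That is 8.51% of the 47 lower, against 4.44% of all measured genes, and 2.13% higher, against 6.49%. The median difference over the 47 was -0.15, against -0.04 over all measured genes. Against the PIK3CA-labelled array, the double array again had 4 lower (KRT15, KRT16, KRT74 and KRT10; background 3.48%) and 1 higher (KRT14; background 5.27%). Against the Her2-labelled array it had 2 lower (KRT15 and KRT8; background 2.64%) and 2 higher (KRT14 and KRT80; background 4.42%). These comparisons share the double array and are not independent.

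Fewer keratins differed from LacZ on the single-gene arrays. The Her2-labelled array had 3 keratins at least 2-fold lower (KRT80, KRT7 and KRT15; background 1.67%) and 1 higher (KRT8; background 1.86%). On the PIK3CA-labelled array 1 was higher (KRT10; background 2.61%) and 0 were lower (background 1.93%). All 3 keratins that were 2-fold above LacZ anywhere (KRT8, KRT10 and KRT14) stayed under 5 on every array. With so few genes, these shares are a description and no more. In bulk RNA, fewer cells that express a keratin and less keratin RNA per cell cannot be told apart, and this holds for every difference below.

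**Figure D2:**
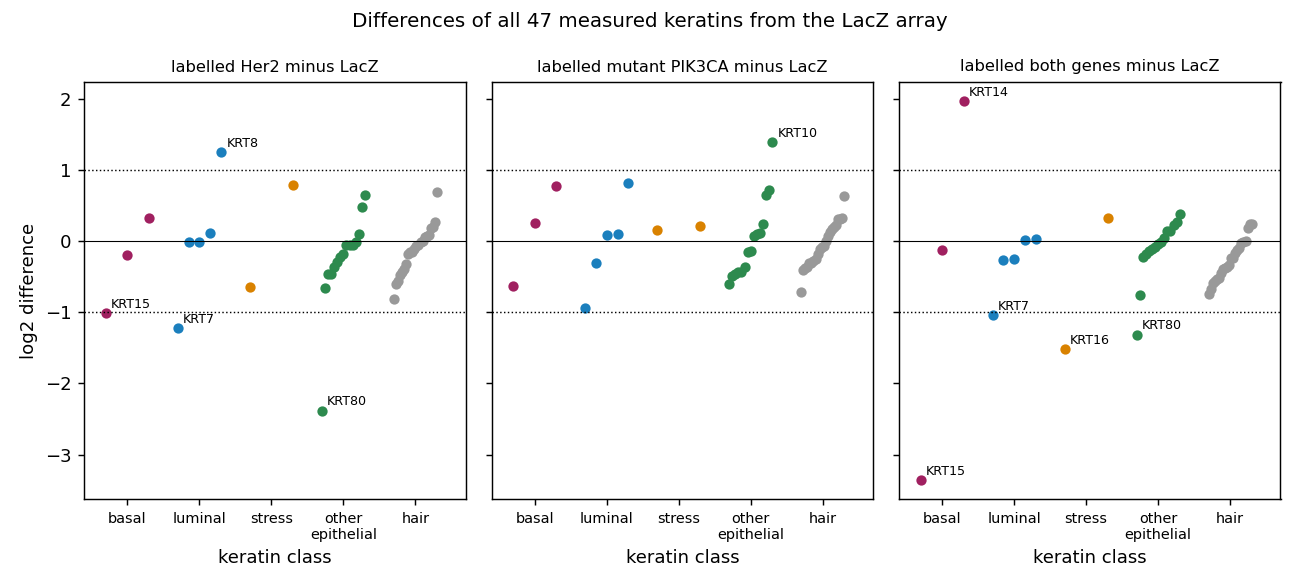
Log2 differences (vertical axis) of all 47 measured keratins from the LacZ array, by class (horizontal axis), in 1 panel per array; each point is 1 gene and dotted lines mark 2-fold. The basal class splits on the double array, with KRT14 at 1.96 and KRT15 at -3.36, and hair keratins stay inside 2-fold in all 3 panels.

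The 3 basal keratins parted on the double array. KRT15, a type I chain of basal cells and of the hair follicle, read 7.37 on LacZ, 6.36 on the Her2-labelled array, 6.74 on the PIK3CA-labelled array and 4.01 on the double array. It was highest on LacZ and stood apart on the double array, 10.3-fold lower than LacZ (log2 difference -3.36), 5.09-fold lower than the Her2-labelled array and 6.62-fold lower than the PIK3CA-labelled array. The single-gene arrays differed from LacZ by -1.02 and -0.64, and the first of these was under 2-fold after quantile normalization (-0.99). KRT5, the basal type II chain, read 7.27, 7.08, 7.52 and 7.14 in the same order. Its values lay within 0.44 of each other, and the double array differed from LacZ by -0.13.

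KRT14, the usual type I partner of KRT5, read 1.47 on LacZ, 1.80 on the Her2-labelled array, 2.24 on the PIK3CA-labelled array and 3.43 on the double array. It went the opposite way to KRT15, with the double array 1.96 above LacZ, or 3.89-fold. All 4 values were low on this scale, although KRT14 is a defining chain of basal cells. KRT14, KRT16 and KRT17 are close in sequence, and probes of 1 may read another. Because the members differ in direction, the class median (-0.13 on the double array, -0.19 on the Her2-labelled array and 0.25 on the PIK3CA-labelled array) describes only its middle member, KRT5. Without KRT15 it was 0.92 on the double array.

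Among the 5 luminal keratins, KRT7 and KRT8 differed between arrays and the rest did not reach 2-fold. KRT7, a type II chain of simple ductal epithelium, read 5.78 on LacZ, 4.55 on the Her2-labelled array, 4.84 on the PIK3CA-labelled array and 4.74 on the double array. It was highest on LacZ, and the other 3 arrays lay within 0.29 of each other, at differences of -1.23, -0.94 and -1.04. Another probe set annotated to KRT7 read between 1.25 and 1.37 on all arrays and showed no such step. With the mean of both probe sets the differences were -0.62, -0.53 and -0.57, none of them 2-fold.

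KRT8, the type II chain of the simple epithelial pair, read 2.40 on LacZ, 3.65 on the Her2-labelled array, 3.21 on the PIK3CA-labelled array and 2.41 on the double array. The single-gene arrays were the higher ones, by 1.25 and 0.81, and the double array matched LacZ to 0.01. KRT18, its type I partner, read 2.68, 2.79, 2.76 and 2.41 and did not follow it. KRT19, a small type I chain of luminal cells, ranged from 1.30 to 1.61, and KRT20, a chain of gut and urothelial surface cells, from 0.94 to 1.05. The luminal class median was -0.01, 0.09 and -0.25 on the Her2, PIK3CA and double arrays.

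Of 5 stress keratins, 2 were analysed here. KRT16, the type I chain induced in wounded epidermis, read 8.54 on LacZ, 7.89 on the Her2-labelled array, 8.75 on the PIK3CA-labelled array and 7.01 on the double array. It was lowest on the double array, 2.87-fold lower than LacZ (-1.52) and 3.32-fold lower than the PIK3CA-labelled array (-1.73). KRT6C, a type II chain of the same group, read 0.46, 1.24, 0.61 and 0.77, all low, and it is nearly identical in sequence to KRT6A and KRT6B. The class median of 0.07, 0.18 and -0.60 (Her2, PIK3CA, double) is the mean of these genes and says little about either. KRT16 is the member that carries a high value.

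Proliferation genes were higher than on LacZ both on the double array and on the PIK3CA-labelled array. All 7 of the proliferation list (MKI67, TOP2A, BUB1, CCNB1, CDK1, PLK1 and AURKA) were at least 2-fold higher on the double array than on LacZ, against 6.49% of all measured genes, with a median of 3.96. On the PIK3CA-labelled array all 7 were at least 2-fold higher too, against 2.61% of all measured genes, with a median of 1.92. On the Her2-labelled array 0 were higher and 2 at least 2-fold lower, against 1.86% and 1.67% of all measured genes. The proliferation antigen gene MKI67 read 4.60, 3.39, 6.76 and 8.56 in the order LacZ, Her2, PIK3CA, double. KRT16 differed from LacZ by -1.52 on the double array and by only 0.21 on the PIK3CA-labelled array. Whether MKI67 and KRT16 are related was not tested.

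Outside the 3 classes, KRT80, KRT10 and KRT74 reached 2-fold in at least 1 of the 5 comparisons. KRT80, a type II chain found near desmosomes, read 5.30 on LacZ, 2.91 on the Her2-labelled array, 4.83 on the PIK3CA-labelled array and 3.98 on the double array. It was lowest on the Her2-labelled array, 5.23-fold lower than LacZ (-2.39), and on the double array it was lower by less (-1.32). KRT80 lies next to KRT7 in RefSeq, and both were highest on LacZ and lowest on the Her2-labelled array. For KRT7 that array lay only 0.18 under the double array, and its other probe set was lowest on the PIK3CA-labelled array (1.25).

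KRT10, the type I chain of suprabasal epidermis, read 2.93 on LacZ, 2.88 on the Her2-labelled array, 4.32 on the PIK3CA-labelled array and 3.31 on the double array. Only the PIK3CA-labelled array stood apart, 2.61-fold above LacZ (1.38). Its type II partner KRT1 stayed between 0.24 and 0.71. KRT74, a chain of the inner root sheath of hair, read 1.01, 1.19, 1.65 and 0.49, so its 2-fold difference between the double and PIK3CA arrays (-1.17) lies among values under 2. The other 21 hair keratins measured stayed inside 2-fold in all 5 comparisons.

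Textbook partners parted in some comparisons and lay close in others. On the double array, KRT5 differed from LacZ by -0.13 and KRT14 by 1.96. On the Her2-labelled array, KRT8 differed by 1.25 and KRT18 by 0.11, and on the double array by 0.01 and -0.27. On the PIK3CA-labelled array, KRT1 differed by -0.43 and KRT10 by 1.38, while between the double and Her2-labelled arrays each differed by 0.43. KRT4 and KRT13, the pair of internal stratified epithelium, lay at or under 1.54 throughout. Except for KRT5, all these partners stayed under 5 on every array, so a small difference does not show a shared level. Neighbours in the cluster differed as well: KRT15 lies between KRT13 and KRT19, which were low on all arrays, and KRT14 lies next to KRT16, which went the opposite way on the double array. By chain type, 2 of 26 type I and 2 of 21 type II genes were at least 2-fold lower on the double array than on LacZ, against 4.44% of all measured genes.

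Departure from additivity was taken as the value with both genes minus each single-gene value plus LacZ. It was at least 1 log2 unit in size for 6 of the 47 keratins (4.26% above and 8.51% below). Of all measured genes, 10.2% reached that size in either direction, so the keratin count is near that share. KRT8 (-2.04), KRT15 (-1.71), KRT74 (-1.34) and KRT16 (-1.08) were lower on the double array than the single-gene arrays add up to. KRT80 (1.53) and KRT7 (1.12) were higher than that sum, and each was already lower than LacZ on both single-gene arrays. KRT14 (0.86) and KRT5 (-0.19) stayed under 1. KRT16 was under 1 in size after cyclic loess (-0.96). KRT10 (-0.95) passed 1 in size after quantile normalization (-1.07) and cyclic loess (-1.03). The departure rests on all 4 arrays at once, and for KRT7 averaged over its probe sets it was 0.57.

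Most of the genes for proteins that tie keratin filaments to the membrane read lower on the double array than on LacZ. Of 11 measured anchors of desmosomes and hemidesmosomes, 7 were at least 2-fold lower than on LacZ (4.44% of all measured genes were) and 1 was higher (6.49%), with a median of -1.25, against -0.04 over all measured genes. Most measured genes have low values, with less room to fall. Of the 8 anchors that reached 5 on at least 1 array, 5 were lower, beside 478 of the 4314 measured genes that did. JUP (plakoglobin, which links cadherins to the desmosomal plaque) read 8.23, 6.99, 7.72 and 4.93, a difference of -3.29. PPL (periplakin) differed by -1.78, PKP3 (a plakophilin) by -1.37, ITGB4 (the hemidesmosome integrin chain) by -1.30 and DSP (desmoplakin, which binds keratins directly) by -1.29. DST (dystonin, a hemidesmosome linker with several isoforms) read 4.92, 5.87, 5.79 and 6.97 and was the anchor that was higher, by 2.05.

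The anchors differed less on the single-gene arrays. On the Her2-labelled array, 2 of 11 were at least 2-fold lower (JUP at -1.24 and PKP3 at -1.02) and 0 higher, against 1.67% and 1.86% of all measured genes, with a median of -0.58. On the PIK3CA-labelled array 0 were lower and 1 was higher (ITGA6, the partner chain of ITGB4, at 1.26), against 1.93% and 2.61% of all measured genes, with a median of 0.00. JUP was lowest on the double array, as KRT15 and KRT16 were.

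**Figure D3:**
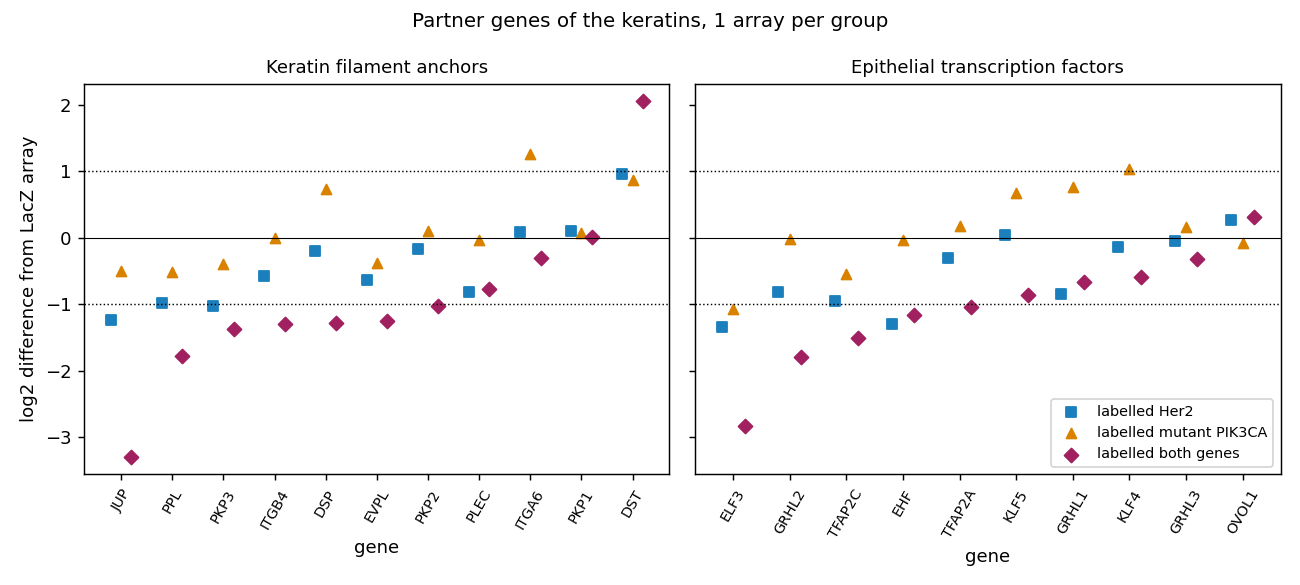
Log2 differences from the LacZ array (vertical axis) for 11 keratin filament anchors (left) and 10 epithelial transcription factors (right), ordered by the double array; each point is 1 array and dotted lines mark 2-fold. On the double array, JUP (-3.29) and ELF3 (-2.83) are lowest and DST (2.05) is highest.

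Of 10 epithelial transcription factors, several of which act on keratin genes, 5 were at least 2-fold lower on the double array than on LacZ. The count 2-fold higher was 0, and of all measured genes 4.44% were lower and 6.49% higher. The median was -0.95, against -0.04 over all measured genes. Of the 4 factors that reached 5 on at least 1 array, 3 were lower, beside 478 of the 4314 measured genes that did. ELF3, an epithelial ETS factor, read 4.67, 3.33, 3.60 and 1.84 and differed by -2.83. GRHL2, a grainyhead factor of epithelial junctions, differed by -1.79, and TFAP2C (an AP-2 factor) by -1.5. EHF (another ETS factor) differed by -1.16 and TFAP2A by -1.04. On the Her2-labelled array 2 of 10 were at least 2-fold lower, ELF3 (-1.34) and EHF (-1.29), and 0 higher. The shares over all measured genes were 1.67% and 1.86%, and the list median was -0.56. EHF was thus no lower on the double array (4.82) than on the Her2-labelled array (4.69). KLF4, a factor of epithelial differentiation, was 1.04 higher on the PIK3CA-labelled array, where ELF3 differed by -1.07.

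Other intermediate filament genes showed a single 2-fold difference between LacZ and the double array. Of 16, 1 was higher and 0 were lower, with a median of -0.31. For a list of this size that is near the shares over all measured genes (6.49% higher and 4.44% lower). The one that was higher was LMNB1, a nuclear lamin, which read 3.30, 3.13, 3.53 and 6.78 and differed by 3.48. VIM, the mesenchymal filament vimentin, read 1.34, 0.97, 0.95 and 1.59 and differed by 0.25. The values of VIM were low on all 4 arrays. DES (desmin, the muscle filament) was 1.60 higher on the PIK3CA-labelled array, at 3.35.

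Some fibroblast markers were higher on the Her2-labelled array (2 of 7, DPT and FAP) and on the double array (3 of 7, DPT, LUM and DCN) by at least 2-fold against LacZ, against 1.86% and 6.49% of all measured genes. Of the 7, 0 reached a log2 value of 5 on LacZ, 2 on the Her2-labelled array, 0 on the PIK3CA-labelled array and 3 on the double array. Their summed linear values were 5.42, 8.66, 5.67 and 8.56 on the log2 scale in that order. DPT (dermatopontin), which read 3.41, 8.38, 3.69 and 7.86, carried most of that sum on the Her2-labelled and double arrays. LUM (lumican) read 6.26 and DCN (decorin) 5.06 on the double array, against at most 1.15 elsewhere. The collagen genes COL1A1 and COL1A2, which define fibroblasts, stayed at or under 2.24 and 0.87, and PDGFRB at or under 1.01. CDH1 (E-cadherin) differed by -4.27 between the double array and LacZ. The part of these markers in the keratin differences was not tested.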

How the data were processed

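RNA from 4 MCF10A cell models was measured on 1 Affymetrix whole-transcript array each. The authors deposited 1 log2 value for each probe set, obtained with RMA and oligo per the submitters' processing notes, which background-corrects, normalizes between arrays and summarises probes. Tool versions and any filter were not stated. Log base 2 follows from RMA and the range of the values. Of 53617 probe sets, 23871 had 1 symbol, 1842 several and 27904 none in the platform annotation used here. Symbols were updated by gene identifier with RefSeq GRCh38.p14 (90 updated), and small RNAs were left out, which gave 20910 genes. For a gene with several probe sets, the one with the highest mean was used. No low-value filter was applied, because one that asks for a high value on 1 array selects genes that differ.

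Differences of log2 values were computed in Python 3.11.15 with pandas 2.3.3 and counted at 2-fold. No p-value was computed, since each group is 1 array; an additive fit, whose only residual is the departure from additivity, was not run here. Alternatives were quantile normalization and cyclic loess (limma 3.58.1, 3 iterations), the mean of all probe sets, a 1.5-fold threshold, filters on low values, and other class rules. All basal, luminal and stress keratins were described, with any other keratin reaching a log2 value of 5 or a 2-fold difference in the 5 comparisons. Of each partner list, up to 6 members that differed 2-fold from LacZ were described. The keratins and lists were chosen with earlier results of these data known. The number of arrays limits the precision.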

Additional observations from a re-analysis of the deposited data

Results flagged for a closer look

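For KRT8, the difference that went with each label turned direction between backgrounds. Both turns rest on the same 4 values, between 2.40 and 3.65, and are not separate observations. The Her2 label went with a difference of 1.25 beside LacZ and of -0.80 beside mutant PIK3CA, and the mutant PIK3CA label with 0.81 beside LacZ and -1.24 beside Her2. KRT74 turned direction for the mutant PIK3CA label, with 0.64 beside LacZ and -0.70 beside Her2, at values under 2 on all arrays. Each direction rests on 1 array against 1, and these differences were not tested.

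A probe set outside the keratin comparisons, annotated to both KRT34 and LOC100653049, carried signal on 1 array. It read 1.88 on LacZ, 1.14 on the Her2-labelled array, 5.71 on the PIK3CA-labelled array and 2.30 on the double array, so it was 3.83 above LacZ on the PIK3CA-labelled array. It was left out because it has 2 symbols, and it was singled out after its values were seen.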

How the results depend on the processing

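No paired analysis was possible because each group holds 1 array. Of 19 differences of at least 2-fold among the keratins described singly, 19 stayed past 2-fold with the same sign after cyclic loess, 17 after quantile normalization (exceptions: KRT15 on the Her2-labelled array against LacZ, and KRT80 between the double and Her2 arrays) and 17 with the mean of all probe sets (exceptions: KRT7 on the Her2 and double arrays against LacZ); 0 turned direction under these 3. Quantile normalization left 1 keratin higher between double and Her2, in place of 2. With genes asked to reach a log2 value of 5 on 1 array, 0 keratins were higher on any array than on LacZ and between double and PIK3CA; between double and Her2 1 was higher and 1 lower, and between double and PIK3CA 2 were lower. KRT7 and KRT80 pass this filter through the LacZ array alone and could not have been counted as higher than LacZ, so these counts are partly fixed by the filter. Of the 4314 measured genes reaching 5 on at least 1 array, 127 were higher and 112 lower for Her2 against LacZ. These counts were 305 and 176 for PIK3CA against LacZ, and 597 and 478 for double against LacZ. They were 394 and 263 for double against Her2, and 432 and 383 for double against PIK3CA. Asking for 5 on the higher array of the pair gave the same keratin counts, except 0 higher between double and Her2. A mean of at least 3 gave 0 higher for Her2 against LacZ, double against LacZ and double against PIK3CA, and 1 higher and 1 lower for double against Her2. At 1.5-fold and against LacZ, 4 keratins were higher and 7 lower for Her2, 6 and 4 for PIK3CA, and 8 lower for double. At the same threshold 5 were lower for double against Her2, and 2 higher and 8 lower for double against PIK3CA. Shares over all measured genes were not computed at 1.5-fold or with the mean filter, so those counts have no background here. Both filters (5 on 1 array, or a mean of 3) changed the class medians against LacZ. For Her2, mutant PIK3CA and double, the basal medians became -0.60, -0.19 and -1.75 and the luminal ones (KRT7 alone) -1.23, -0.94 and -1.04. KRT16 alone gave -0.65 (Her2) and -1.52 (double). KRT7 passed the filter at 5 through the LacZ array alone, so that filter fixed the sign of the luminal medians. Without KRT15 the basal medians were 0.068, 0.51 and 0.92, and the basal mean for double was -0.51. The alternative with KRT17 among the basal keratins was not run, because KRT17 was not analysed here. For the anchors, 1.5-fold gave 1 higher and 5 lower on the Her2-labelled array and 3 higher on the PIK3CA-labelled array, and the filter at 5 gave 1 lower on the Her2-labelled array. Against LacZ on the double array, 1.5-fold gave 8 transcription factors lower and 2 other filament genes higher. The filter at 5 gave 3 transcription factors lower (median -1.33). Both filters turned the median of the other filament genes to 0.75. LMNB1 passed the filter at 5 through the double array alone, so that median is partly fixed by the filter. If the Her2 and PIK3CA labels were exchanged, the values given for each would be those of the other; the comparison of double with LacZ would stay as it is. Values near the array medians may lie at background, where a difference near 0 does not show an equal level.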
